A study of Drosophila melanogaster with 12 samples.

Results

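The nuclear transfer RNA (tRNA) genes of Drosophila melanogaster were examined for open chromatin in early embryos. Every gene of the dm6 annotation with the biotype tRNA and a symbol beginning tRNA: on the chromosome arms was taken, which gave 290 of the 18164 annotated genes on the arms. A gene was scored as open in a library when a peak overlapped its span extended by 200 bp on either side. Of the 290 genes, 80 had a transcription start site (TSS) of a protein-coding gene within 1 kb and 210 did not. There were 98 on arm 2R, 79 on 3R, 48 on 3L, 41 on 2L and 24 on X.

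The data are peak lists from ATAC-seq, an assay in which a transposase inserts adapters into DNA that nucleosomes leave accessible. The 12 libraries fall into 6 groups of 2. The first groups were M-Z+ dPCIF1 mutant embryos collected 0.5 to 1.5 h after egg laying, called early here, and the wild-type embryos labelled as their controls. The others were M-Z+ HIRA mutant embryos from the late stage, 2 to 3 h, and from the early one, each with wild-type embryos labelled as controls for the HIRA mutant. The label M-Z+ states that the mother supplied no product of the mutated gene and the father a functional copy. The mutants carried null alleles made by CRISPR/Cas9, and which allele each library used was not given in the sources used here. Wild-type embryos came from the w1118 strain, and embryos were picked by hand and pooled for each replicate. HIRA is a chaperone that deposits the histone variant H3.3, and dPCIF1 is the fly homologue of a mammalian enzyme that methylates the mRNA cap. The paper found no signal of that cap mark in flies and describes dPCIF1 as a protein associated with chromatin. The 2 libraries of a group are separate pools, so tests describe the spread between pools.

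A peak list says where a threshold was passed and how wide the region was, not how many reads lay behind it, and the sequencing depth of each library is unknown. The dPCIF1 mutants had 9774 and 11347 peaks and their controls 7534 and 7814. The late HIRA mutants had 10595 and 7122 peaks, against 11432 and 9998 in their controls, and the early HIRA mutants 1505 and 2399, against 4707 and 5449 in their controls. Each comparison was therefore also made with the same number of peaks in every library, the widest ones, since the lists hold no other rank. The start of Hira (FBgn0022786) was open in 5 libraries and that of Pcif1 (FBgn0037021), the annotation's symbol for dPCIF1, in none. Neither value checks the genotype of a library, because a peak at the start of a gene does not show which allele it carries. Hira lies on X, which sons take from their mother alone, so sons of HIRA mutant mothers had no paternal copy of it. The paper cites a role of HIRA in forming the diploid zygote, so a paternal copy at work cannot be assumed in daughters either.

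tRNAs carry amino acids to the ribosome and read the codons of mRNA. Their genes are transcribed by RNA polymerase III from promoter elements inside the gene, the A box and the B box, which the factor TFIIIC binds before TFIIIB and the polymerase are recruited. Transcription ends at a run of T just after the gene. A fly embryo starts with maternal tRNAs, and its own genes are switched on during the nuclear cycles covered by these collections. In many animals tRNA genes lie in groups, and most have copies of the same sequence elsewhere in the genome.

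The genes were 71 to 186 bp long, with a median of 73 bp. They had 95 distinct sequences, of which 43 had more than 1 copy and together covered 238 genes. Of these sequences, tRNA:Ala-AGC-2 (73 bp) had 11 copies and tRNA:Asp-GTC-1 (72 bp) had 12, and both are shown because they are among the sequences whose copies differed most in how often they were open. The gene sequences are given 5′ to 3′ on the coding strand, with the anticodon (bases 34 to 36) in capitals.
tRNA:Ala-AGC-2-7: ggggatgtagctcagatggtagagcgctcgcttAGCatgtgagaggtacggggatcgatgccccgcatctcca
tRNA:Asp-GTC-1-11: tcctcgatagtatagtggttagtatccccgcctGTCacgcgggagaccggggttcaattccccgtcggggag

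tRNA:Ala-AGC-2-7 lies at chr3R:17646368-17646440 (dm6, plus strand), between genes and 1239 bp from the TSS of CG14322. It was open in 10 of 12 libraries. The 60 bases before it are the stretch in which its flank can be set beside those of copies that were never open. Among the other copies over 1 kb from a protein-coding TSS, tRNA:Ala-AGC-2-1 on 3L (minus strand) and tRNA:Ala-AGC-2-9 on 3R (minus strand) were open in 0 libraries, tRNA:Ala-AGC-2-11 in 1 and tRNA:Ala-AGC-2-3 in 4. The upstream stretches, all in lower case because no part of them was singled out, are at chr3R:17646308-17646367, chr3L:8028619-8028678 and chr3R:17658454-17658513.
upstream of tRNA:Ala-AGC-2-7: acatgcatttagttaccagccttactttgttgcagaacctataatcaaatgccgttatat
upstream of tRNA:Ala-AGC-2-1: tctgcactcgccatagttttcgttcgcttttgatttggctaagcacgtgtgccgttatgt
upstream of tRNA:Ala-AGC-2-9: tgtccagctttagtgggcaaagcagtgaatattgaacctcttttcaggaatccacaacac

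tRNA:Asp-GTC-1-11 lies at chr3R:24555302-24555373 (plus strand), within the span of Esyt2 and on its strand, 6285 bp from the nearest protein-coding TSS and with no other tRNA gene within 5 kb. It too was open in 10 libraries. The copies tRNA:Asp-GTC-1-1 on 2L (minus strand) and tRNA:Asp-GTC-1-6 on 2L (plus strand) were open in 0, and tRNA:Asp-GTC-1-12 in 1. Their upstream stretches are at chr3R:24555242-24555301, chr2L:5241178-5241237 and chr2L:8619968-8620027.
upstream of tRNA:Asp-GTC-1-11: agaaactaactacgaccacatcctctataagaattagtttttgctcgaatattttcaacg
upstream of tRNA:Asp-GTC-1-1: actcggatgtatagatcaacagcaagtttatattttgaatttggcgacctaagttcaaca
upstream of tRNA:Asp-GTC-1-6: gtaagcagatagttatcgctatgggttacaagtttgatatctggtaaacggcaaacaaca

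Across the series, tRNA genes were open most often in the libraries labelled for dPCIF1, mutant and wild type, and almost never in the early HIRA mutants. The dPCIF1 mutants had 115 and 123 of the 290 genes open (39.7% and 42.4%), and their controls 102 and 104 (35.2% and 35.9%). In the late HIRA mutants 53 and 35 genes were open (18.3% and 12.1%), against 55 and 65 (19.0% and 22.4%) in their controls. In the early HIRA mutants 0 and 2 genes were open (0% and 0.690%), against 18 and 19 (6.21% and 6.55%) in their controls. The 2 libraries of a group lay close together except in the late HIRA mutants.

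The starts of the 13945 protein-coding genes, scored as the first 73 bases extended by the same 200 bp, gave another order of the groups. They were open in 24.4% and 26.7% in the dPCIF1 mutants and in 15.2% and 16.3% in their controls. They were open in 16.0% and 11.0% in the late HIRA mutants, against 24.0% and 22.8% in their controls, and in 1.86% and 3.18% in the early HIRA mutants, against 10.4% and 12.2% in their controls. The tRNA percentage divided by the protein-coding percentage was 1.63 and 1.59 in the dPCIF1 mutants and 2.32 and 2.2 in their controls. It was 1.14 and 1.10 in the late HIRA mutants and 0.792 and 0.984 in their controls. It was 0 and 0.217 in the early HIRA mutants and 0.594 and 0.536 in their controls.

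**Figure D1:**
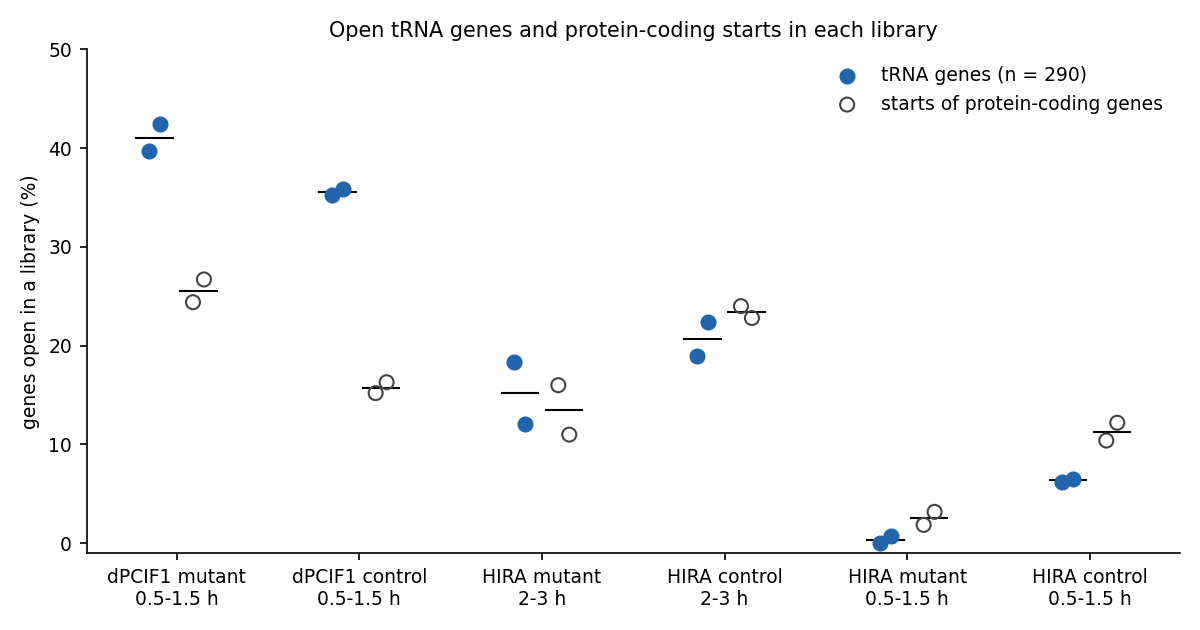
Percent of the 290 tRNA genes (filled points) and of the 13945 protein-coding starts (open points) that were open in each library, by group; each point is 1 of the 2 libraries of a group and the line is their mean. In the dPCIF1 mutants and controls the tRNA points lie at 35.2% to 42.4%, above the protein-coding points of the same libraries, while in the early HIRA mutants they lie at 0% and 0.690%.

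Of the 6 comparisons, the largest difference at tRNA genes was between the wild-type sets of the same stage. The dPCIF1 controls had 35.5% ± 0.488 of the tRNA genes open and the early HIRA controls 6.38% ± 0.244 (SD, n = 2 each), a difference of 29.1 points and a ratio of 5.57. The protein-coding starts differed by a ratio of 1.39 between the same libraries, with means of 15.7% and 11.3%. With the 4707 widest peaks of every library, 26.9% and 26.6% of the tRNA genes were open in the dPCIF1 controls, against 6.21% and 6.55% in the HIRA controls. With these peaks 10.8% and 11.6% of the protein-coding starts were open in the dPCIF1 controls and 10.4% and 10.8% in the HIRA controls. The percentages of tRNA genes did not overlap in either form, and the exact two-sided permutation test over libraries returned p = 0.333, which groups of 2 cannot go below.

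By the call used here, a gene gained openness when both libraries of the first group were open and neither of the second, and lost it in the reverse case. Between the wild-type sets 66 tRNA genes in 42 loci (22.8%) were open in the dPCIF1 controls alone and 0 in the HIRA controls alone. Over all 18164 genes the calls were 3.05% and 0.407%. All 12 tRNA genes open in both HIRA controls were among the 88 open in both dPCIF1 controls, which is 100% of the smaller and 13.6% of the larger list. Of the 66, 50 lay over 1 kb from a protein-coding TSS. By chromosome order the first were tRNA:Pro-AGG-1-3 and tRNA:Pro-AGG-1-4 on 2L, followed on 2R by tRNA:Arg-ACG-1-1, tRNA:Lys-CTT-1-1, tRNA:Asn-GTT-1-5, tRNA:Asn-GTT-1-6, tRNA:Lys-CTT-1-2 and tRNA:Lys-CTT-1-4. They carry proline, arginine, lysine and asparagine. The 2 sets share the label wild type and the stage, and differences in collection, library or sequencing between them cannot be told apart.

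The dPCIF1 mutants were then compared with their own controls. They had 41.0% ± 1.95 of the tRNA genes open and the controls 35.5% ± 0.488 (SD, n = 2 each), a difference of 5.52 points and a ratio of 1.16. The ratio at protein-coding starts was 1.62, with means of 25.5% and 15.7%. Both mutant libraries lay above both controls (exact permutation test, two-sided, p = 0.333, the smallest possible). With the 7534 widest peaks of each library the order turned round: 33.1% and 33.4% in the mutants, against 35.2% and 34.5% in the controls, a difference of -1.55 points. A cut by width also drops narrow peaks at tRNA genes. Their median width percentile within a library was 43.8 and 49.3 in the mutants and 56.5 and 47.3 in the controls. Whether width or peak number turned the order was not tested. Set against all 4 wild-type libraries of the early stage, which differed widely among themselves, the difference was 20.1 points, and over the genes more than 1 kb from a protein-coding TSS the difference from their own controls was 3.57 points. With the 7534 widest peaks 21.1% and 21.1% of the protein-coding starts were open in the mutants and 15.2% and 16.0% in the controls.

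Of the 290 genes, 13 (4.48%) were gained in the dPCIF1 mutants and 5 (1.72%) lost, against 4.91% and 0.374% of all genes. The share gained was therefore near that over all genes. The gained genes over 1 kb from a protein-coding TSS were tRNA:Tyr-GTA-1-3, tRNA:Asn-GTT-1-7, tRNA:Asn-GTT-1-8, tRNA:Thr-TGT-2-1, tRNA:Glu-CTC-2-2, tRNA:Arg-CCT-1-2, tRNA:Arg-CCT-1-3 and tRNA:Gln-TTG-2-1. The lost genes were tRNA:Ile-AAT-1-6, tRNA:Ile-AAT-1-7, tRNA:Leu-AAG-1-2, tRNA:Ser-AGA-2-1 and tRNA:Arg-TCG-2-2. Both lists hold neighbours that share a locus, such as the pairs for asparagine and isoleucine. Of the 105 genes open in both mutants and the 88 open in both controls, 77 were common to the lists, 73.3% of the first and 87.5% of the second. Leaving out a library loosens the call, and the 18 calls then became 30 without mutant replicate 1, 28 without mutant replicate 2 and 33 without control replicate 2.

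In the early HIRA mutants the mean was 0.345% ± 0.488, against 6.38% ± 0.244 in the controls (SD, n = 2 each), a difference of -6.03 points. The ratio of means was 0.0541, and that at protein-coding starts 0.222, with means of 2.52% and 11.3%. The groups did not overlap (exact permutation test, two-sided, p = 0.333, the smallest possible). With the 1505 widest peaks of each library 0 and 2 genes were open in the mutants, against 3 and 6 in the controls, a difference of -1.21 points. Set against all 4 early wild-type libraries the difference was -20.6 points (exact permutation test, two-sided, p = 0.133). That is not the smallest p for 2 against 4 libraries, because setting the dPCIF1 controls apart from the rest gave a larger difference. The 2 genes of mutant replicate 2 were tRNA:Leu-CAG-1-2 and tRNA:Leu-CAG-1-3, neighbours on 3L under 1 peak, and both were closed in both early HIRA controls.

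No tRNA gene was gained in the early HIRA mutants (0.0440% of all genes were) and 12 in 9 loci were lost (4.14%, against 4.24% of all genes). The lost share was thus near that over all genes, while no tRNA gene was open in both mutants. The lost genes over 1 kb from a protein-coding TSS were tRNA:Ile-AAT-1-6, tRNA:Ala-TGC-2-1, tRNA:Ser-CGA-1-4, tRNA:Glu-TTC-1-5, tRNA:iMet-CAT-1-4, tRNA:iMet-CAT-1-5, tRNA:Ala-AGC-2-7, tRNA:Thr-CGT-1-3 and tRNA:Asp-GTC-1-11. They include both initiator genes in ome, whose product begins every protein chain. With equal peak numbers the count was 3, and without control replicate 1 it was 19.

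The late HIRA mutants had 15.2% ± 4.39 of the tRNA genes open and the controls 20.7% ± 2.44 (SD, n = 2 each), a difference of -5.52 points. The 2 mutant libraries, at 18.3% and 12.1%, lay farther apart than that. The difference was -8.62 points without mutant replicate 1 and -2.41 points without mutant replicate 2. The ratio of means was 0.733, and 0.578 at protein-coding starts with means of 13.5% and 23.4%. The groups did not overlap (exact permutation test, two-sided, p = 0.333, the smallest possible), but with the 7122 widest peaks of each library they did, with 12.8% and 12.1% in the mutants and 10.3% and 15.9% in the controls. Protein-coding starts did not overlap at that number of peaks, with 11.9% and 11.0% in the mutants and 17.8% and 18.6% in the controls.

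Only 3 genes (1.03%) were gained in the late HIRA mutants, against 0.473% of all genes, and 7 (2.41%) were lost, against 5.10%. The gained genes were tRNA:Thr-TGT-2-2, tRNA:Arg-TCG-2-3 and tRNA:Pro-CGG-2-1. The lost genes were tRNA:Arg-ACG-1-2, tRNA:Leu-AAG-1-2, tRNA:Leu-AAG-1-3, tRNA:Ile-TAT-1-2, tRNA:Leu-CAG-1-3, tRNA:Glu-CTC-2-3 and tRNA:Gln-CTG-2-3, with 3 leucine genes among them. Of the 28 genes open in both mutants, 22 (78.6%) were also open in both controls, where they made up 48.9% of 45 genes. The 10 calls became 26 without mutant replicate 1, 18 without mutant replicate 2, 26 without control replicate 1 and 16 without control replicate 2, and 16 with an extension of 500 bp.

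tRNA genes were open more often at the later stage, in hours, in both genotypes. By the paper's methods fewer embryos were pooled per replicate at the late stage, and that difference cannot be told apart from stage. Because many HIRA mutants were delayed or arrested in nuclear division, the genotypes may not have been matched in nuclear cycle. In the HIRA controls the mean was 20.7% at the late and 6.38% at the early stage, a difference of 14.3 points and a ratio of 3.24. The same ratio at protein-coding starts was 2.06, with means of 23.4% and 11.3%. In the HIRA mutants the late mean was 15.2% and the early mean 0.345%, a difference of 14.8 points. The ratio of 44.0 rests on 2 open genes in the early libraries, and that at protein-coding starts was 5.36. Neither pair of stages overlapped (exact permutation test, two-sided, p = 0.333 for each, the smallest possible). Both stage comparisons kept their order with equal numbers of widest peaks, at 26 and 34 late genes against 18 and 19 early ones in controls, and 14 and 8 against 0 and 2 in mutants.

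From the early to the late stage 26 tRNA genes (8.97%) were gained and 0 lost in the HIRA controls, against 5.61% and 0.0220% of all genes. In the HIRA mutants 28 (9.66%) were gained and 0 lost, against 5.86% and 0.00551%. By chromosome order the first gained in the controls were tRNA:Arg-ACG-1-1, tRNA:Lys-CTT-1-1, tRNA:Lys-CTT-1-5, tRNA:Arg-ACG-1-4, tRNA:Ile-AAT-1-4, tRNA:Leu-AAG-1-2, tRNA:Leu-AAG-1-3 and tRNA:iMet-CAT-1-1. Those gained first in the mutants were tRNA:Thr-TGT-2-2, tRNA:Ile-AAT-1-4, tRNA:Ala-TGC-2-1, tRNA:Ser-CGA-1-4, tRNA:Val-AAC-2-1, tRNA:iMet-CAT-1-1, tRNA:iMet-CAT-1-2 and tRNA:Glu-TTC-1-4. Genes such as tRNA:Ala-TGC-2-1 were open in the early controls already and so could be gained in the mutants alone. Of the 12 genes open in both early controls, 10 (83.3%) were open in both late controls, where they were 22.2% of 45. Of these 45 genes, 37 (82.2%) were open in both dPCIF1 controls, where they were 42.0% of 88. The 26 calls in controls became 41 without late HIRA control replicate 1 and 9 with equal peak numbers. The 28 calls in mutants became 52 without late HIRA mutant replicate 2 and 6 with equal peak numbers.

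No tRNA gene was open in more than 10 libraries, and 136 (46.9%) were open in none. Of the 154 genes open at least once, 68 were open only in libraries labelled for dPCIF1 and 7 only in the 8 labelled for HIRA. The same split was not counted over all genes, so whether it is particular to tRNA genes is not known. All 4 libraries labelled for dPCIF1 shared 77 open genes. The 10 genes open in 10 libraries were closed in both early HIRA mutants and open in every other library. They were tRNA:Arg-TCT-1-1, tRNA:Ala-TGC-2-1, tRNA:Ser-CGA-1-4 and tRNA:Glu-TTC-1-5 on 2R, tRNA:iMet-CAT-1-4 and tRNA:iMet-CAT-1-5 on 3L, and tRNA:Ala-AGC-2-7, tRNA:Ala-AGC-2-8, tRNA:Thr-CGT-1-3 and tRNA:Asp-GTC-1-11 on 3R. tRNA:Val-AAC-2-1 was open in 9 and tRNA:Ile-AAT-1-4 in 8 libraries.

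**Figure D2:**
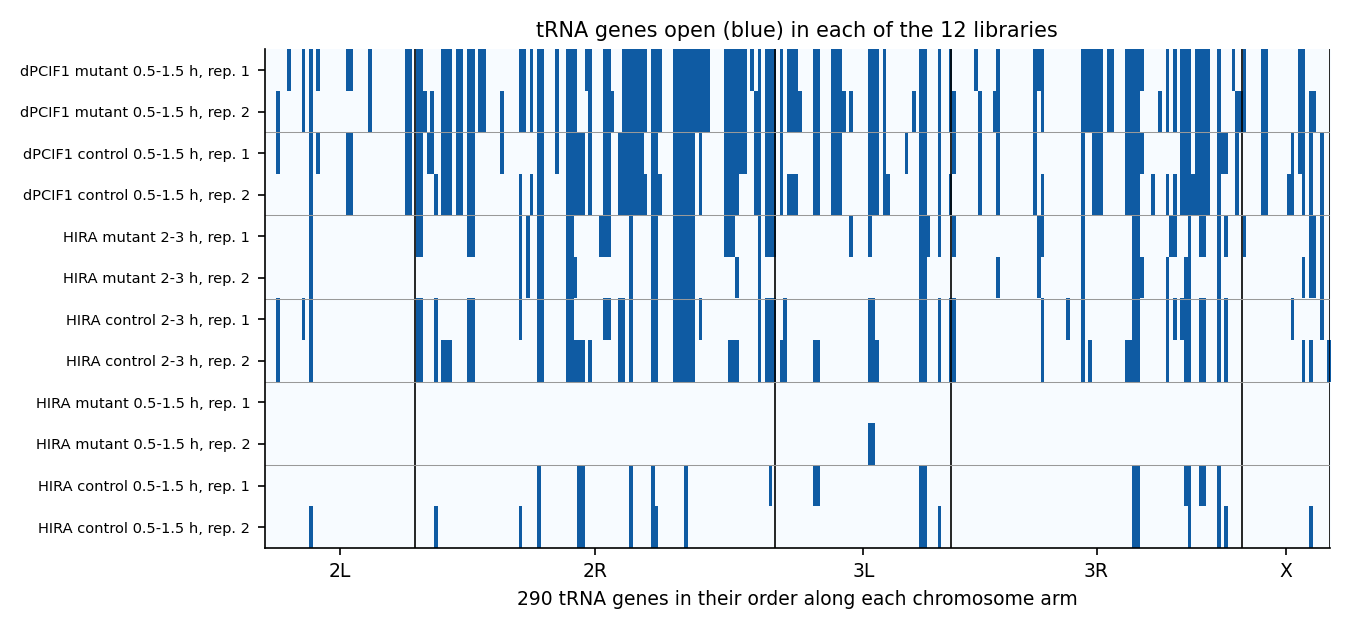
Each column is 1 of the 290 tRNA genes in their order along arms 2L, 2R, 3L, 3R and X, each row 1 library, and blue marks an open gene. Blue blocks on 2R and 3R recur in the rows of several groups, and the rows of the early HIRA mutants hold 0 and 2 open genes.

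The initiator methionine genes, whose tRNA reads the start codon, were among the most often open. tRNA:iMet-CAT-1-4 (chr3L:14673942-14674013, minus strand) and tRNA:iMet-CAT-1-5 (chr3L:14674344-14674415, plus strand) both lie within ome and were open in 10 libraries. tRNA:iMet-CAT-1-1 and tRNA:iMet-CAT-1-2 on 2R were open in 8, namely all the late ones and all those labelled for dPCIF1. tRNA:iMet-CAT-1-3, whose sequence is the same as those 4, lies alone within hng3 on 3L and was open in 0, as was tRNA:iMet-CAT-2-1 within Mmp2. The gene for selenocysteine tRNA, tRNA:SeC-TCA-1-1, was open in 7 libraries, in no early HIRA mutant and in 1 of 2 early HIRA controls. No suppressor tRNA gene was annotated.

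By amino acid, the median number of libraries in which a gene was open was 8 for the 6 initiator methionine genes, 5 for 11 isoleucine, 4 for 17 alanine and 3.5 for 8 tryptophan genes. It was 3 for 19 glutamate and 20 serine genes. It was 0 for the 20 glycine genes, of which 13 were never open, and for the 26 arginine, 19 lysine, 17 proline, 15 valine, 12 glutamine, 10 tyrosine, 8 phenylalanine, 7 cysteine and 5 histidine genes. In the dPCIF1 mutants 73.7% of the glutamate and 61.8% of the alanine genes were open on average, against 52.6% and 61.8% in the controls. Glycine genes were open in 22.5% in the mutants and 17.5% in the controls. Genes of 1 amino acid often lie in 1 cluster and share peaks, so these counts are not independent. By chromosome arm, 57.7% of the genes on 2R were open in the dPCIF1 mutants and 50.5% in the controls, while on 2L they were 18.3% and 14.6%.

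tRNA genes with near neighbours were open more often than those alone. Runs were formed from tRNA genes of 1 arm at most 5 kb apart, giving 30 clusters of 3 or more genes with 138 genes in all, 38 pairs and 76 single genes. Among the genes over 1 kb from a protein-coding TSS, 55.2% and 58.3% of the 96 clustered genes were open in the dPCIF1 mutants and 53.1% and 55.2% in their controls. Of the 58 single genes 12.1% and 15.5% were open in the mutants and 8.62% and 10.3% in the controls. Clustered genes exceeded single genes by 42.8 to 44.9 points in these 4 libraries. Over the 12 libraries the difference was on average 21.7 points ± 18.1 (SD over libraries), and it was above 0 in 11 and at 0 in early HIRA mutant replicate 1, which had no open tRNA gene. With the 1505 widest peaks of every library the average was 7.24 points ± 6.91, above 0 in 10 libraries. The libraries score the same genes, so the 12 values are repeated views of 1 gene set and carry no test. The 56 genes in pairs lay between, with means of 39.3% in the dPCIF1 mutants and 34.8% in the controls.

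**Figure D3:**
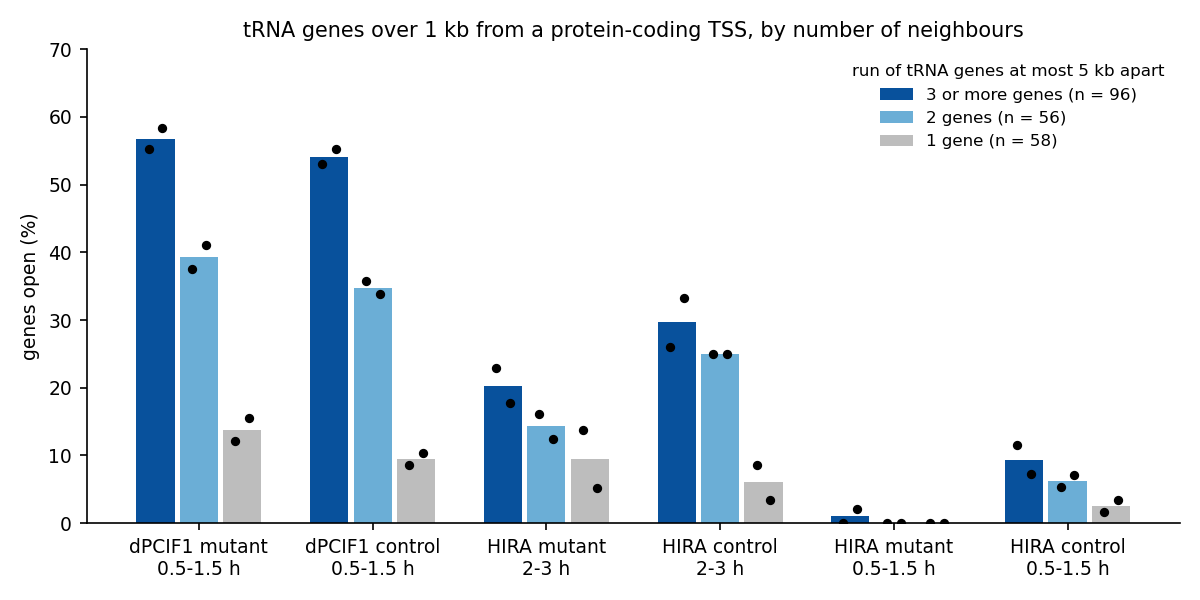
Percent of the tRNA genes over 1 kb from a protein-coding TSS that were open, for genes in runs of 3 or more (n = 96), of 2 (n = 56) and of 1 (n = 58); bars are group means and points the 2 libraries. The mean is higher for clusters than for single genes in all 6 groups, at 56.8% and 13.8% in the dPCIF1 mutants.

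One peak can cover neighbouring genes, which raises the count in clusters. The peaks at tRNA genes numbered 75 and 82 in the dPCIF1 mutants and 63 and 63 in the controls, or 1.50 to 1.65 open genes a peak. Counted as runs, 25 and 26 of 30 clusters had an open gene in the dPCIF1 mutants and 24 and 22 in the controls. For pairs the numbers were 21 and 21 of 38 in the mutants and 18 and 18 in the controls, and for single genes 11 and 15 of 76 in the mutants and 9 and 10 in the controls. A run with more genes also has more chances to hold an open gene.

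The 5 clusters with most genes differed among themselves. The cluster of 11 genes on 2R (6161535 to 6171759, 4 lysine, 3 arginine, 3 asparagine and 1 isoleucine gene) had 7 and 7 open genes in the dPCIF1 mutants and 7 and 8 in the controls. It had 2 and 0 in the late HIRA mutants, against 3 and 6 in their controls, and 0 and 0 in the early HIRA mutants, against 0 and 1. The cluster of 11 on 3R (17617761 to 17631750, alanine, proline, threonine and valine genes) had 7 and 7 in the dPCIF1 mutants and 3 and 3 in the controls, and 1 open gene over all HIRA-labelled libraries. Of the 13 genes gained in the dPCIF1 mutants, tRNA:Val-CAC-1-1, tRNA:Pro-TGG-1-1, tRNA:Thr-AGT-1-5 and tRNA:Thr-AGT-1-6 lie there.

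The cluster of 7 on 2R with 5 glutamate and 2 initiator methionine genes (19725620 to 19728958) was the most widely open of the 5. It had 7 and 7 open genes in the dPCIF1 mutants and 6 and 6 in the controls, 6 and 6 in both the late HIRA mutants and their controls, and 0 and 0 in the early HIRA mutants against 1 and 1. The cluster of 5 isoleucine and 2 leucine genes on 2R (13430282 to 13432794) had 4 and 3 in the dPCIF1 mutants and 5 and 5 in the controls, and 2 and 2 in the early HIRA controls. The cluster of 5 arginine and 2 serine genes on X (14014814 to 14017284) had 2 open genes in each of the 4 libraries labelled for dPCIF1 and 0 in the other 8.

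At the 1 kb limit, distance to a protein-coding TSS separated the tRNA genes little. The percentage open within 1 kb minus that farther away was on average -1.53 points ± 3.07 (SD over libraries) and above 0 in 3 of 12 libraries. With the 1505 widest peaks of every library it changed sign, to 0.253 points ± 2.25, above 0 in 6 of 12. Within 1 kb, 42.5% and 43.8% were open in the dPCIF1 mutants and 32.5% and 32.5% in the controls. Farther away, 38.6% and 41.9% were open in the mutants and 36.2% and 37.1% in the controls. Of the open genes near a TSS, 3 of 34 and 7 of 35 in the dPCIF1 mutants and 5 of 26 and 4 of 26 in the controls had a peak that also held a protein-coding TSS. Most of these peaks did not reach the TSS. With a limit of 500 bp in place of 1 kb the average difference was larger, at -6.73 points ± 5.58, and above 0 in 1 of 12 libraries.

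At the 1 kb limit, tRNA:Leu-CAG-1-7 (977 bp) was open in 1 library and tRNA:Trp-CCA-2-4 (981 bp) in 6, while tRNA:His-GTG-1-2 (1011 bp) was open in 0 and tRNA:Ala-AGC-2-3 (1044 bp) in 4. Of the 691 cases of a gene open in a library, 607 (87.8%) had a peak overlapping the gene itself and 84 a peak within 200 bp only. A further 147 cases had the nearest peak within the next 200 bp. Genes between protein-coding genes (156), within one on the opposite strand (75) and within one on the same strand (59) were open in 42.9%, 42.0% and 34.7% in the dPCIF1 mutants, and in 37.8%, 39.3% and 24.6% in the controls.

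In the libraries labelled for dPCIF1 and in the late ones, peak coverage was higher just upstream of the middle of the tRNA genes than at the other distances compared. Among the 210 genes over 1 kb from a protein-coding TSS, the position 50 bp before the middle of the gene was under a peak in 34.8% and 37.6% in the dPCIF1 mutants and in 31.0% and 31.9% in the controls. At 500 bp before the middle the values were 14.8% and 16.7% in the mutants and 11.4% and 13.3% in the controls, and at 2000 bp before it 5.24% and 5.24% in the mutants and 4.29% and 4.76% in the controls. The late HIRA mutants had 15.2% and 10.5% at 50 bp before the middle, against 19.0% and 20.0% in the controls. In the early HIRA mutants the position was covered in 0% and 0.476%, against 6.19% and 5.24% in the controls. In both early HIRA mutants and in early HIRA control replicate 2 the position 1000 bp after the middle was covered more often, at 0.952% and 1.90% in the mutants and 5.71% in that control. In the dPCIF1 libraries the median distance of the peak midpoint from the gene's middle was 114 to 118 bp, and in 69.7% to 76.1% of the open genes the peak covered the whole gene.

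**Figure D4:**
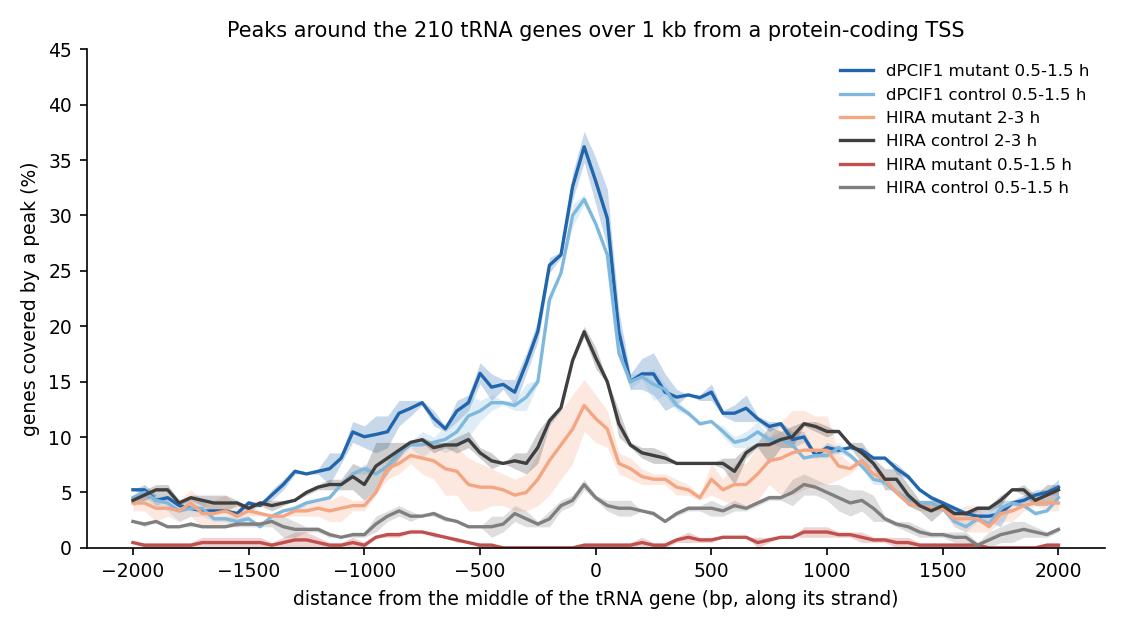
Percent of the 210 tRNA genes over 1 kb from a protein-coding TSS that were covered by a peak at each distance (bp) from the middle of the gene along its strand; lines are group means and bands span the 2 libraries. The lines for the dPCIF1 mutants and controls are highest 50 bp upstream and the line for the early HIRA mutants shows no rise at the gene.

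Copies with the same gene sequence were often open in one place and closed in another. Of the 37 sequences with more than 1 copy over 1 kb from a protein-coding TSS, 25 had both a copy open at least once and a copy never open, 7 had every such copy open at least once, and 5 were never open. tRNA:Ala-AGC-2, tRNA:Asp-GTC-1 and tRNA:Glu-TTC-1 spanned 0 to 10 libraries. So did tRNA:Ser-CGA-1 and tRNA:iMet-CAT-1, and the first 3 were taken from this tie by order of name. The 6 copies of tRNA:Glu-TTC-1, numbered 1 to 6, were open in 6, 1, 0, 8, 10 and 8 libraries, and the copies in the 7-gene cluster of glutamate and initiator genes were the higher ones. For all copies of tRNA:Ala-AGC-2, tRNA:Asp-GTC-1 and tRNA:Glu-TTC-1, every stretch of 100 bases that lies within the scored window is found once in the genome. Of the 290 genes, 271 had this property, 15 had it for at least 50% of such stretches and 4 for less. Those 4 genes, tRNA:Glu-CTC-3-5, tRNA:Glu-CTC-3-6, tRNA:Lys-TTT-2-2 and tRNA:Lys-TTT-2-3, were never open. Because reads that mapped to more than 1 place were removed, a closed score of these 4 cannot be told apart from missing reads, and a read shorter than a copied gene may be lost at any copy.

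**Figure D5:**
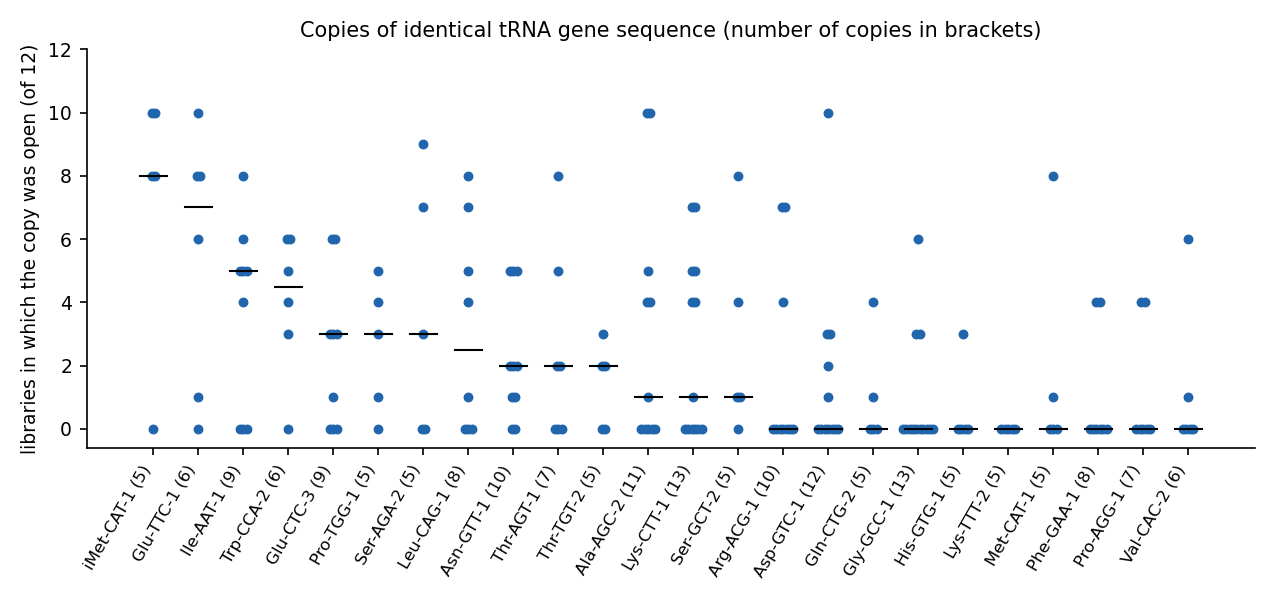
Number of the 12 libraries in which each copy was open, for every tRNA gene sequence with 5 or more identical copies (number in brackets), near and far from a TSS; each point is 1 copy and the line is the median. Copies of 1 sequence spread widely, as for Asp-GTC-1, where 1 of 12 copies was open in 10 libraries and the others in 0 to 3.

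Sequence elements of the genes were then set beside the scores. The core of the B box, GTTCGANNC, was found on either strand in the scored window of 57.6% of the tRNA genes and 4.31% of the other genes. It lay within the gene on the coding strand in 160 genes, of which 41.9% were open in the dPCIF1 mutants and 37.5% in the controls. Of the 130 without it, 40.0% were open in the mutants and 33.1% in the controls. Neither printed gene sequence holds this exact core. TTTT within 30 bases after the gene, the usual polymerase III terminator, was present in 277 genes. GAGAG, the core bound by GAGA factor, was in 45.9% of the windows, against 42.2% for other genes. The 133 tRNA genes with it were open in 45.1% in the dPCIF1 mutants and 42.9% in the controls, against 37.6% and 29.3% without. The late HIRA libraries differed little, with 15.4% against 15.0% in the mutants and 21.4% against 20.1% in the controls. The early ones had 0.752% against 0% in the mutants and 7.89% against 5.10% in the controls. CAGGTAG, bound by the early factor Zelda, was in 2.07%, against 2.69%. TATCGAT, bound by DREF, was in 4.48%, against 16.4%. A match says that the letters are present and not that a factor was bound.

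The same scores were taken at other genes transcribed by RNA polymerase III. Of 8 genes for U6, U6atac, 7SK and 7SL RNA, 2 and 2 were open in the dPCIF1 mutants and 3 and 3 in the controls, 2 in each of the 4 late libraries, and 1 and 2 in the early HIRA mutants, against 2 and 2. snRNA:U6:96Aa, a spliceosomal RNA gene, was open in all 12 libraries and snRNA:7SKa, which encodes a regulator of transcription elongation, in 11, whereas no tRNA gene exceeded 10. The 96 genes for 5S rRNA were open in 0 libraries, and 71 of them had no unique stretch of 100 bases. The 21 genes for U1, U2, U4 and U5, made by RNA polymerase II, had 12 and 11 open in the dPCIF1 mutants and 14 and 13 in the controls, and 11 and 9 in the early HIRA controls, where few tRNA genes were open.

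The last groups were protein-coding genes for making and charging tRNAs. Of 19 genes for RNA polymerase III subunits and its factors, the start was open in 10 and 11 in the dPCIF1 mutants and 4 and 6 in the controls. It was open in 1 and 2 in the late HIRA mutants, against 7 and 5, and in 0 and 0 in the early HIRA mutants, against 1 and 4. No gene for a TFIIIC subunit was among the 19. Of 35 genes for aminoacyl-tRNA synthetases, which attach the amino acid, 11 and 13 were open in the dPCIF1 mutants and 1 and 5 in the controls. These 35 include genes for mitochondrial synthetases, such as LeuRS-m and AlaRS-m. In the late HIRA mutants 7 and 0 were open, against 9 and 11 in their controls. In the early HIRA mutants 0 and 0 were open, against 3 and 1. In the dPCIF1 controls, then, tRNA genes were open in 35.2% and 35.9% while synthetase genes, mitochondrial ones included, were open in 2.86% and 14.3%. All protein-coding starts were open in 15.2% and 16.3% there. The order was not the same in every group. In the dPCIF1 mutants tRNA genes were at 39.7% and 42.4% and synthetase genes at 31.4% and 37.1%. In the late HIRA controls tRNA genes were at 19.0% and 22.4% and synthetase genes higher, at 25.7% and 31.4%.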

How the data were processed

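The authors trimmed paired reads with Trimmomatic 0.39, mapped them to dm6 with Bowtie2 2.2.5, marked duplicates, removed reads of low quality or without a unique place with SAMtools 1.18, and called peaks in each library with MACS2 2.2.7.1. Read length and treatment of the transposase offset were not given in the sources used here. The deposited lists hold chromosome, start and end of each peak in bp, with no count, score or rank. The members, gene lists and tests were chosen with earlier results of these data known.

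Genes and TSS came from Ensembl release 115 on Release 6 of the genome, the same assembly as dm6. Sequences came from the RefSeq copy of that assembly. An overlap of 1 bp counted. Other genes were scored by their first 73 bases, or whole if up to 300 bp long. Loci are extended spans merged where they overlap. The exact permutation test over libraries (two-sided) served for percentages, and the call of gained or lost followed the use of peaks found in both replicates. Genes named were called genes (up to 8 a direction, those over 1 kb from a TSS first, then by position; genes beyond these were named after their values were seen), those open in most libraries, the 5 largest clusters, the initiator and selenocysteine genes and 3 sets of identical copies. Scoring was tested on simulated peaks. Alternatives changed the extension, overlap, peak number, unit, distance and gap limits, set each early mutant against all 4 early wild-type libraries, and left out genes or libraries. Replicates sharing a number did not deviate together (correlations over 18164 genes of -0.0299 to 0.0160). Python 3.11.15, numpy 2.4.6 and pandas 2.3.3 were used.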

Additional observations from a re-analysis of the deposited data

How the results depend on the processing

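Of 74 alternative values for the percentages of tRNA genes open, 73 kept their direction. The exception was the comparison of dPCIF1 mutants with their controls with the same number of widest peaks, at -1.55 points (exact permutation test, p = 0.333). Against all 4 wild-type libraries of 0.5 to 1.5 h the differences were 20.1 points for the dPCIF1 mutants and -20.6 for the HIRA mutants (exact permutation test, p = 0.133 each). Equal numbers of widest peaks gave -1.21 points for the HIRA mutants at 0.5 to 1.5 h, -0.69 at 2 to 3 h, and 3.97 and 3.45 for the stages of the HIRA controls and mutants. Leaving out 1 library gave -8.62 to -2.41 points for the HIRA mutants at 2 to 3 h. Of 74 alternative counts of genes gained or lost, 58 lay within 1.5 times the count reported. Equal numbers of widest peaks gave a count of 3 for the HIRA mutants at 0.5 to 1.5 h, 9 for the stages of the HIRA controls and 6 for those of the mutants. With whole loci scored in place of genes it was 17 for the stages of the HIRA controls and 37 between the wild-type sets. With an extension of 500 bp it was 16 for the HIRA mutants at 2 to 3 h. Leaving out 1 library, which leaves the lone library to decide a call, gave 12 to 19 for the HIRA mutants at 0.5 to 1.5 h, 16 to 26 at 2 to 3 h, 27 to 33 for the dPCIF1 mutants, 30 to 41 for the stages of the HIRA controls, 28 to 52 for those of the mutants and 70 to 80 between the wild-type sets. A TSS limit of 500 bp gave -6.73 points for near minus far genes, an extension of 0 bp -0.352, an overlap of at least 50 bp -0.992 and equal peak numbers 0.253, where clustered minus single genes gave 7.24. With the replicate number as a block (replicate block) the differences were the same, 29.1 points between the wild-type sets for example, and the smallest p was 0.5. A block cannot change a difference or a count, so its values, which are among the 74 of each kind, could not differ. The lists give no depth, so a gene without a peak was not detected as open and may be open below the threshold.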

Other observations

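snoRNA genes, most of which lie in introns of other genes, were scored in the same way. Of 269, 36 and 47 were open in the dPCIF1 mutants and 29 and 24 in the controls. In the HIRA mutants 46 and 34 were open at 2 to 3 h, against 51 and 52 in their controls, and 11 and 8 at 0.5 to 1.5 h, against 21 and 27. The 16 tRNA genes with an annotated intron were open in 34.4% in the dPCIF1 mutants and 28.1% in the controls, and those without in 41.4% and 35.9%.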
